A study of Drosophila melanogaster with 9 samples.

Results

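DNA replication and cell cycle genes were followed in ovaries of Drosophila melanogaster, as 42 genes in 9 roles that run from the origin recognition complex to regulators of cyclin-dependent kinases (Cdks) and of the anaphase-promoting complex (APC). The genes were chosen by name, with earlier results of these data known. Of the 42, 40 were found by symbol or synonym among the 17558 gene identifiers measured. Orc1 and Mcm3 were not found under their current identifiers and are not analysed here. RpA-70 was found by synonym and the other 39 by symbol. Orc3 had 0 counts in all 9 libraries, and the remaining 39 genes passed the filter on low counts and were tested among 8642 genes.

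Gene expression was measured by RNA sequencing of ovaries from 3-day-old flies, and the series asks whether heat shock gene expression depends on Moesin, an actin-binding protein encoded by Moe. There were 9 libraries in 3 genotypes of 3 libraries each. Flies with moe[G0415] over w[1118] are called null heterozygotes, those with moe[NES] over w[1118] NES heterozygotes, and those with moe[NES] over moe[G0415] mutants. All flies were kept at 25 °C, and the labels speak of 10 females for a genotype without saying whether each library had its own. All 3 groups carried moe[G0415], moe[NES] or both, so no flies without either allele were compared. Nothing in the labels states that the replicates are separate crosses, and p-values then measure only the spread between these samples, which may be technical.

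A replication origin is prepared when the origin recognition complex, Cdc6 and the product of dup, the fly Cdt1, load the MCM helicase onto DNA, and geminin blocks that step. Cdc45, the GINS complex and the Cdc7 kinase then turn the loaded helicase into an active fork, while E2F and Dp switch many of these genes on and Rbf holds E2F in check. In the fly ovary germline stem cells and early follicle cells divide, nurse cells and older follicle cells replicate without dividing, and late follicle cells amplify the chorion genes from their own origins. The phosphatase gene stg drives entry into mitosis, and fzr, an activator of the APC, is used by follicle cells when they leave the mitotic cycle.

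Total counts were 31.8 to 43.6 M (1e6) per library. Of the 6 germline genes measured osk was the highest, between 1415 and 1991 counts per 1e6 (CPM). Genes of hemocytes and fat body were detected at lower levels than osk. The germline genes grk (18.99 to 28.84 CPM) and bam (23.72 to 75.59 CPM) overlapped the fat body gene apolpp, while orb, BicD and aub lay above it. Of the 4 hemocyte genes Pxn was the highest, at 1.49 to 4.04 CPM, with NimC1 and eater at or near 0; of the 4 fat body genes apolpp was the highest, at 17.2 to 54.4 CPM, with Lsp2, Fbp1 and Fbp2 under 1 CPM. As a check of the labels, Moe had a log2 fold change of -0.76 (edgeR adjusted p = 0.0218) for the mutant against NES heterozygotes. It had 0.84 (adjusted p = 0.0103) for NES against null heterozygotes and 0.08 (adjusted p = 0.671) for the mutant against null heterozygotes. In the same order, the gene w had 5.17 (edgeR adjusted p = 0.00259), -4.60 (adjusted p = 0.00374) and 0.58 (adjusted p = 0.415). Neither gene was called between mutants and null heterozygotes. Libraries differed within genotypes in the share of counts held by eggshell and yolk genes, which mid and late egg chambers express. The share was 0.827%, 4.57% and 1.02% in null heterozygotes 1, 2 and 3. It was 2.28%, 4.79% and 3.45% in the NES heterozygotes and 5.23%, 3.48% and 4.57% in the mutants. Null heterozygotes 1 and 3 stood apart from the other 7 libraries.

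Levels spanned a wide range once scaled to exon length. Levels here are CPM after scaling by trimmed mean of M values (TMM), divided by kilobases of annotated exon. The mitotic cyclin genes CycB and CycA led with 1258 and 567 CPM per kb, followed by PCNA, the sliding clamp of the fork, with 375. The ribonucleotide reductase subunit genes RnrS and RnrL, which supply deoxynucleotides, had 258 and 235 CPM per kb. Their ranges over the libraries, 172 to 328 and 208 to 260.0, overlapped. RnrS was below RnrL in null heterozygote 2 (172 against 208) and above it in NES heterozygote 1, and the difference between the genes was not tested. At the other end were Psf3, a GINS subunit gene, with 16.6 and Mcm7 with 16.3 CPM per kb. Mcm7 shares 81.7% of its exon bases with an annotated antisense RNA that had 0 counts, and the strand setting used for counting is not given in the sources used here, so its level is uncertain.

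**Figure D1:**
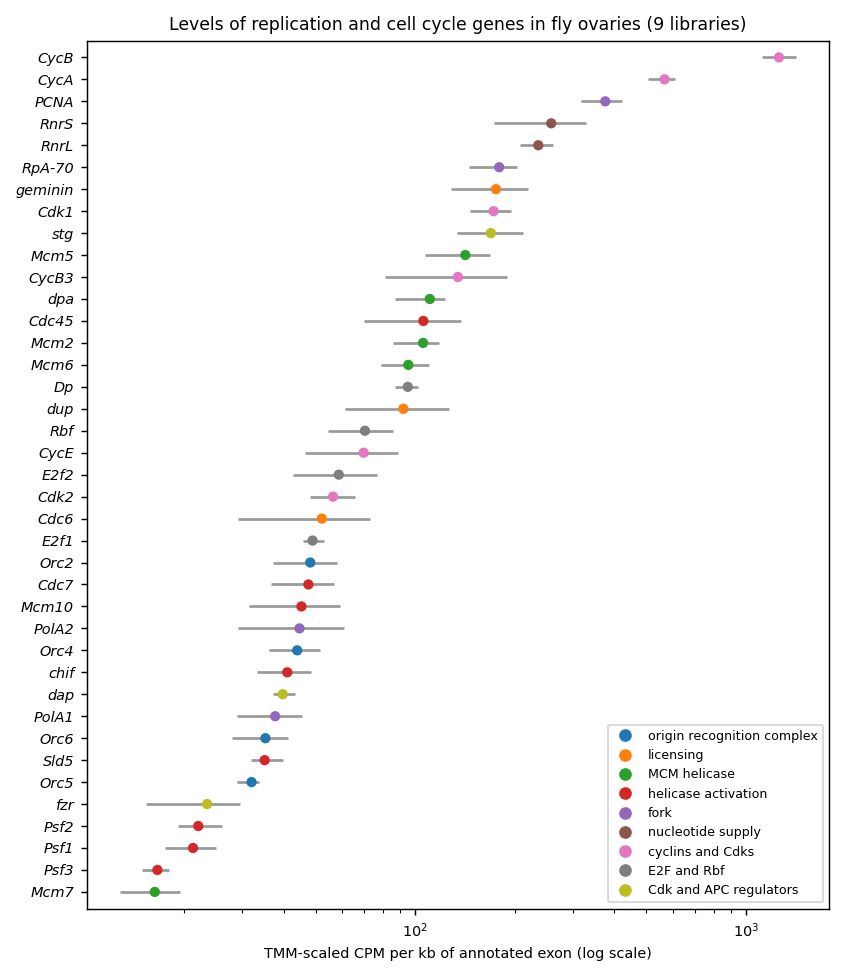
Levels of the 39 genes with counts, as TMM-scaled CPM per kb of exon on a log scale. Points are means over 9 libraries coloured by role, and lines run from the lowest to the highest library; CycB stands highest at 1258 CPM per kb, and Psf3 and Mcm7 lowest at 16.6 and 16.3.

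Overlap with other genes makes 7 of the 40 genes uncertain, those with at least 10% of their exon bases shared. They are Orc3, Mcm7, Cdk2, Psf3, E2f2, chif and Mcm10. Orc3 (BDGP6.54 annotation, chromosome 2R, 13202728 to 13206547, minus strand) shares 100% of its exon bases with CG34315 on the same strand, and CG34315 also had 0 counts. Its expression could not be read from these counts. RpA-70 (chromosome 3R, 8262120 to 8264451, minus strand) and Mcm2 (chromosome 3R, 8264970 to 8267924, plus strand) lie head to head with 518 bases between their starts and share no exon base.

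Most of the genes moved together from library to library, and the pattern crossed the genotypes. For each gene, log2(CPM + 0.5) was set against its own mean over the 9 libraries. The median of these deviations over the 39 genes was 0.186, -0.293 and 0.181 in null heterozygotes 1, 2 and 3. It was 0.184, -0.040 and 0.146 in the NES heterozygotes, and -0.168, -0.016 and -0.098 in the mutants. Over all genes tested the median deviation lay between -0.010 and 0.013 in every library. Null heterozygote 2 had 1 of 39 genes above the gene's own mean, against 33 and 32 in null heterozygotes 1 and 3. It was the lowest of all 9 libraries for 28 of 39 genes, and mutant 1 was the lowest for 7. NES heterozygote 2 was the lowest of its group for 32 genes and mutant 1 of its group for 32. The shares of all genes for these counts were not computed, so the counts cannot be called particular to these genes. Fewer cells of a type and less RNA per cell cannot be told apart in such bulk samples.

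**Figure D2:**
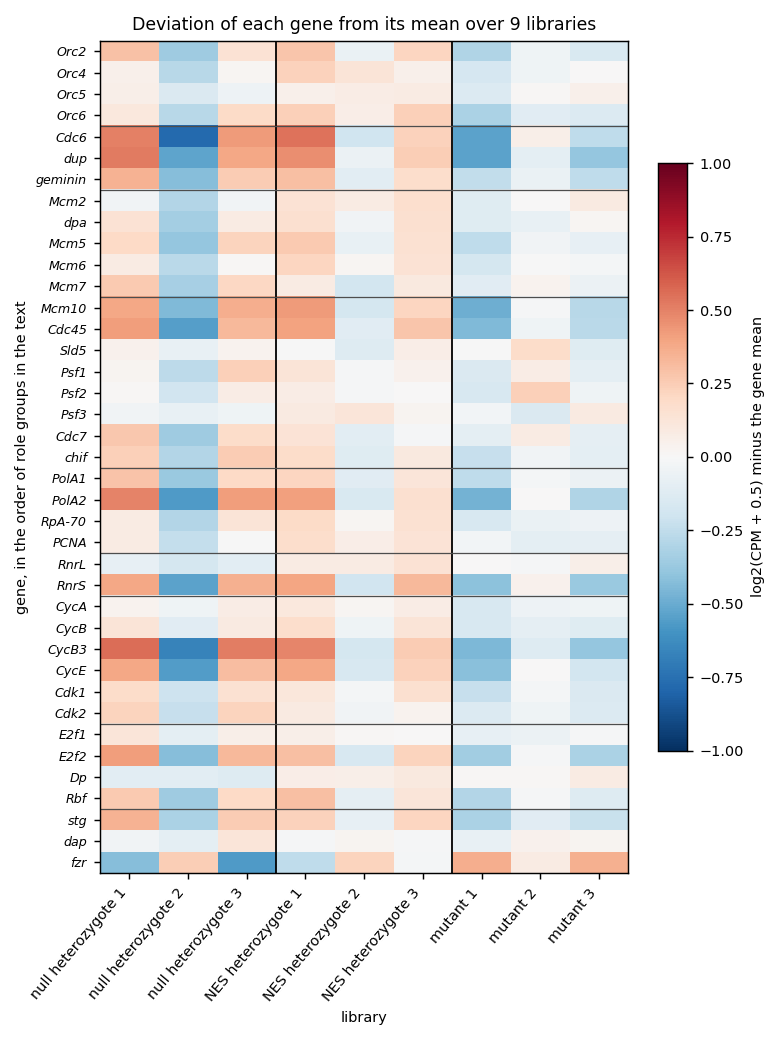
Deviation of each of the 39 genes from its own mean over 9 libraries, as log2(CPM + 0.5), with red above and blue below the mean; columns are libraries and horizontal lines separate roles. Null heterozygote 2 is above the mean for 1 gene, against 33 and 32 in null heterozygotes 1 and 3, and fzr runs opposite to most genes.

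The spread differed between genes. The highest library exceeded the lowest by 1.163-fold for dap and by 2.513-fold for Cdc6, with a median of 1.465-fold. Markers of other ovarian cells differed between the same libraries. The summed level of the 17 eggshell genes ran from 6300 to 38420 CPM in the null heterozygotes, from 19110 to 41870 in the NES heterozygotes and from 27820 to 43880 in the mutants. The 7 follicle cell genes measured summed to 257 to 563, 329 to 502 and 462 to 578 CPM, and the 8 muscle sheath genes measured to 67.1 to 129.5, 60.0 to 113.5 and 96.4 to 182. The 6 germline genes measured summed to 2307 to 2987, 2400 to 2797 and 2552 to 2956 CPM. That sum was mostly osk, while bam alone ranged from 23.72 to 75.59 CPM over the libraries. Log2 fold changes of single germline genes ran from -0.269 to 0.322 for the mutant against the null heterozygote. They ran from -1.045 to 0.330 for the mutant against the NES heterozygote and from -0.164 to 0.776 between the heterozygotes. By edgeR 0 of the 6 were called. The 4 hemocyte genes summed to 1.77 to 2.86, 1.72 to 3.24 and 3.999 to 4.56 CPM, and the 4 fat body genes to 28.7 to 54.7, 31.6 to 43.1 and 17.8 to 51.8. The part of these cells in the results was not tested.

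Genes of licensing, fork assembly and the cell cycle fell as the eggshell share rose within a genotype, while fzr rose. In a fit with 1 coefficient per genotype and the log2 eggshell share of counts as a covariate, chosen after seeing the data, 30 of 39 genes were lower with a higher share (28.7% of all genes tested were called lower) and 1 was higher (27.1% of all genes). The median slope was -0.181 log2 units per doubling of the share, against 0.015 over all genes. The steepest were Cdc6 at -0.57 (SE 0.04, edgeR adjusted p = 1.11e-06) and CycB3, a mitotic cyclin gene, at -0.53 (SE 0.03, adjusted p = 3.98e-07). PolA2, a subunit of DNA polymerase alpha, had -0.47 (SE 0.03, adjusted p = 9.7e-07), and dup had -0.44 (SE 0.03, adjusted p = 5.69e-07). The slope of fzr was 0.34 (SE 0.04, adjusted p = 2.28e-05). The genes not called were Psf2, Sld5, Orc5, CycA, dap, RnrL, Psf3 and Dp, with slopes from -0.12 for Psf2 to 0.00 for Psf3 and Dp.

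Genes of 1 role could have unlike slopes. RnrS fell by 0.42 (SE 0.05, adjusted p = 2.63e-05) while the other ribonucleotide reductase subunit gene, RnrL, had a slope of -0.03 (SE 0.02, adjusted p = 0.378). Among the E2F genes E2f2, which codes for a repressor, fell by 0.36 (SE 0.04, adjusted p = 7.46e-06), and E2f1, the activator, fell by 0.08 (SE 0.02, adjusted p = 0.0129). The difference between genes in slope was not tested. Without null heterozygote 2, 18 genes were called lower (14.7% of all genes) and 1 higher (11.6%). Without null heterozygotes 1 and 3, the libraries farthest from the median share, the counts were also 18 lower (13.2% of all genes) and 1 higher (11.1%). The median slope was then -0.191 and -0.204.

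**Figure D3:**
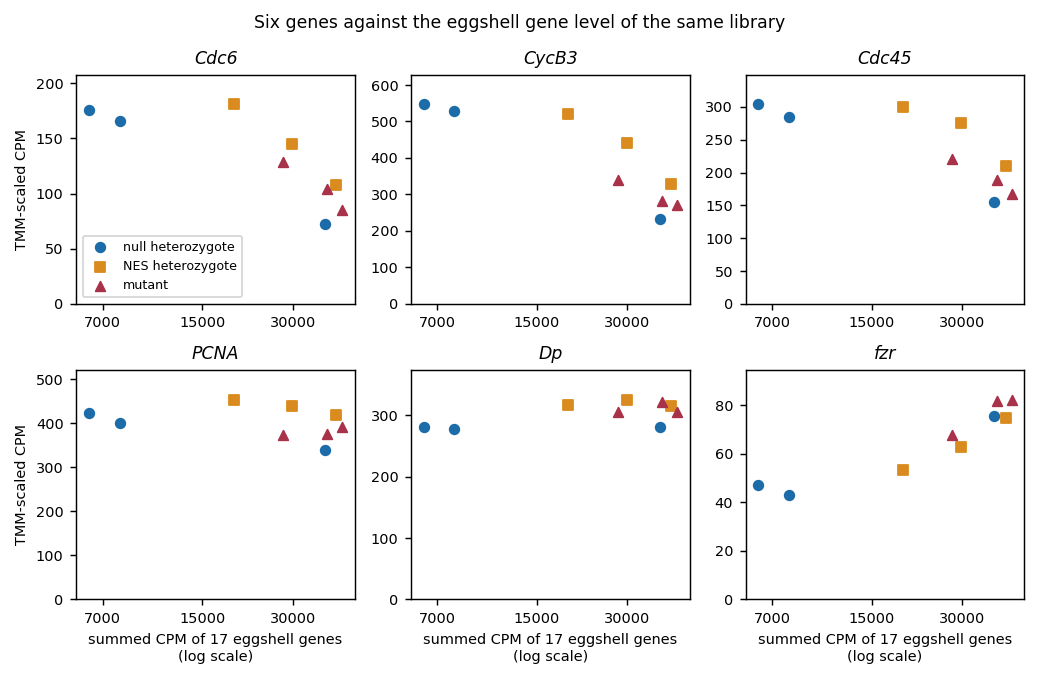
TMM-scaled CPM of 6 genes (linear axis from 0) against the summed CPM of 17 eggshell genes in the same library (log axis), with 1 point per library. Cdc6, CycB3 and Cdc45 lie lower and fzr higher in libraries with more eggshell RNA, Dp has a slope near 0, and PCNA has a shallow one.

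**Figure D4:**
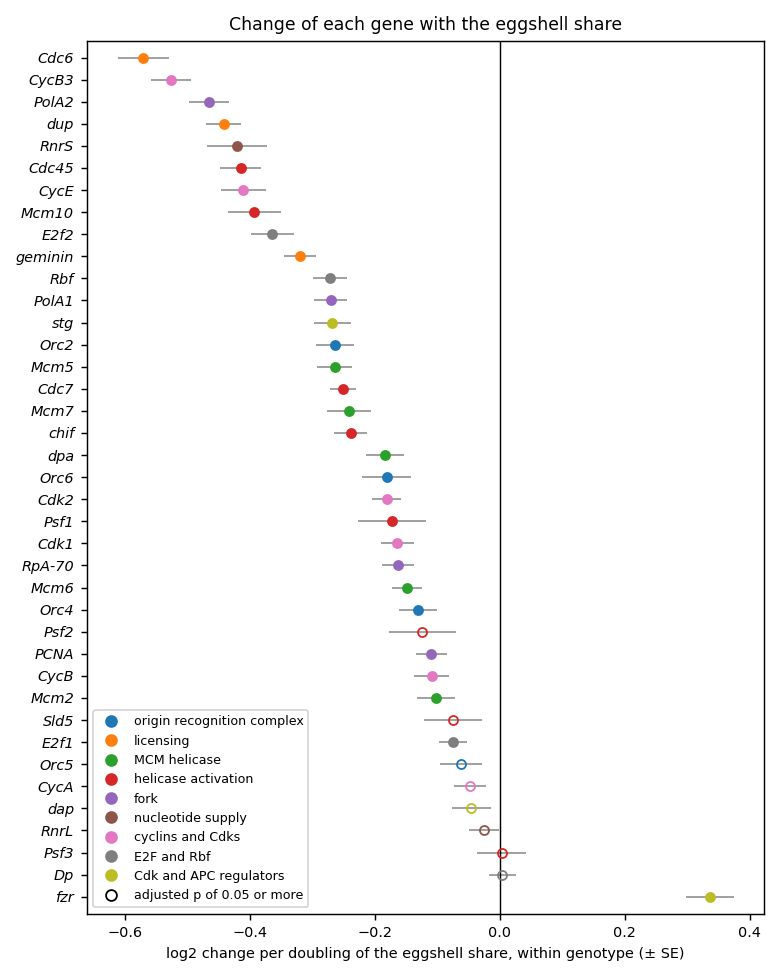
Slope of each of the 39 genes on the log2 eggshell share within genotype, as log2 change per doubling with SE bars from the edgeR fit, coloured by role. Filled points passed an adjusted p of 0.05, and open points did not; Cdc6 is lowest at -0.57 and fzr alone is clearly above 0 at 0.34.

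Between genotypes none of these genes passed the edgeR test over all genes with all 9 libraries and no covariate. The median absolute log2 fold change was 0.165 for the mutant against the null heterozygote (0.190 over all genes). It was 0.209 for the mutant against the NES heterozygote (0.153) and 0.058 between the heterozygotes (0.105). In the mutant against the null heterozygote 30 of 39 genes had a negative log2 fold change, with a median of -0.159 against 0.000 over all genes; with other scalings 31 to 35 were negative. By edgeR 0 of the 39 were called, where 1.25% of all genes were. At an unadjusted p under 0.05 none was lower (7.8% of all genes) and RnrL and Dp were higher (9.15%). DESeq2 called Dp (6.39% of all genes). CycA was lower in every mutant than in every null heterozygote, as were 7.8% of all genes, and RnrL and Dp were higher in every mutant, as were 10.6% of all genes. The mutants lay inside the range of the null heterozygotes for 25 genes, and between null heterozygote 2 and the lower of null heterozygotes 1 and 3 for 22. The shares of all genes in these positions were not computed, so the counts cannot be called particular to these genes.

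That comparison turned with the libraries and the covariate. Without null heterozygote 2, 23 genes were lower and 2, Dp and fzr, were higher (20.8% of all genes in each direction), with a median of -0.284. With the eggshell share as a covariate 13 genes were higher (5.53% of all genes) and 0 lower, with a median of 0.198. The 13 were Cdc45, Cdc6, Cdc7, CycB3, CycE, dpa, geminin, Mcm2, Mcm5, Mcm6, PolA1, PolA2 and Rbf. With null heterozygotes 1 and 3 left out the median was 0.189, and 0 genes were called. Leaving out null heterozygote 1 alone gave a median of -0.082, null heterozygote 3 alone -0.094 and mutant 1 alone -0.097.

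Against the NES heterozygote the mutant was lower for more of the genes, again without a call. Of 39 genes 36 had a negative log2 fold change, with a median of -0.200 against 0.002 over all genes. By edgeR 0 genes were called (0.972% of all genes), and by DESeq2 also 0 (3.99%). At an unadjusted p under 0.05 Orc6, PCNA and CycB were lower (4.49% of all genes) and none was higher (6.85%). In 13 genes every mutant lay below every NES heterozygote, as in 11.4% of all genes, and in 0 above, as in 13.5%. The 13 were Orc4, Orc5, Orc6, dup, Mcm6, RpA-70, PCNA, RnrL, CycA, CycB, Cdk2, E2f1 and stg. With the eggshell share as a covariate 19 genes were lower (6.58% of all genes), with a median of -0.151.

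Between the heterozygotes these genes had no shift of stable direction. In the NES against the null heterozygote 30 of 39 genes had a positive log2 fold change, with a median of 0.053 against -0.003 over all genes. The direction turned without null heterozygote 2, where 27 of 39 were negative (median -0.083), and without NES heterozygote 1, where 23 were (median -0.011). With library size alone as the scaling 19 were negative (median 0.003), and without null heterozygote 1 or 3, or NES heterozygote 2, the median was 0.158, 0.130 or 0.137. By edgeR 0 genes were called (0.833% of all genes), and DESeq2 called Dp and RnrL (3.95%). At an unadjusted p under 0.05 Mcm2, RnrL and Dp were higher (4.77% of all genes) and none was lower (4.78%). Every NES heterozygote lay above every null heterozygote for Orc4, Mcm2, Psf3, RnrL and Dp, as for 6.25% of all genes, and below for 0 genes (7.05%). With the eggshell share as a covariate 30 genes were higher (17.1% of all genes), with a median of 0.339. Each pair of these comparisons shares 1 group of libraries, so their values are not independent.

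**Figure D5:**
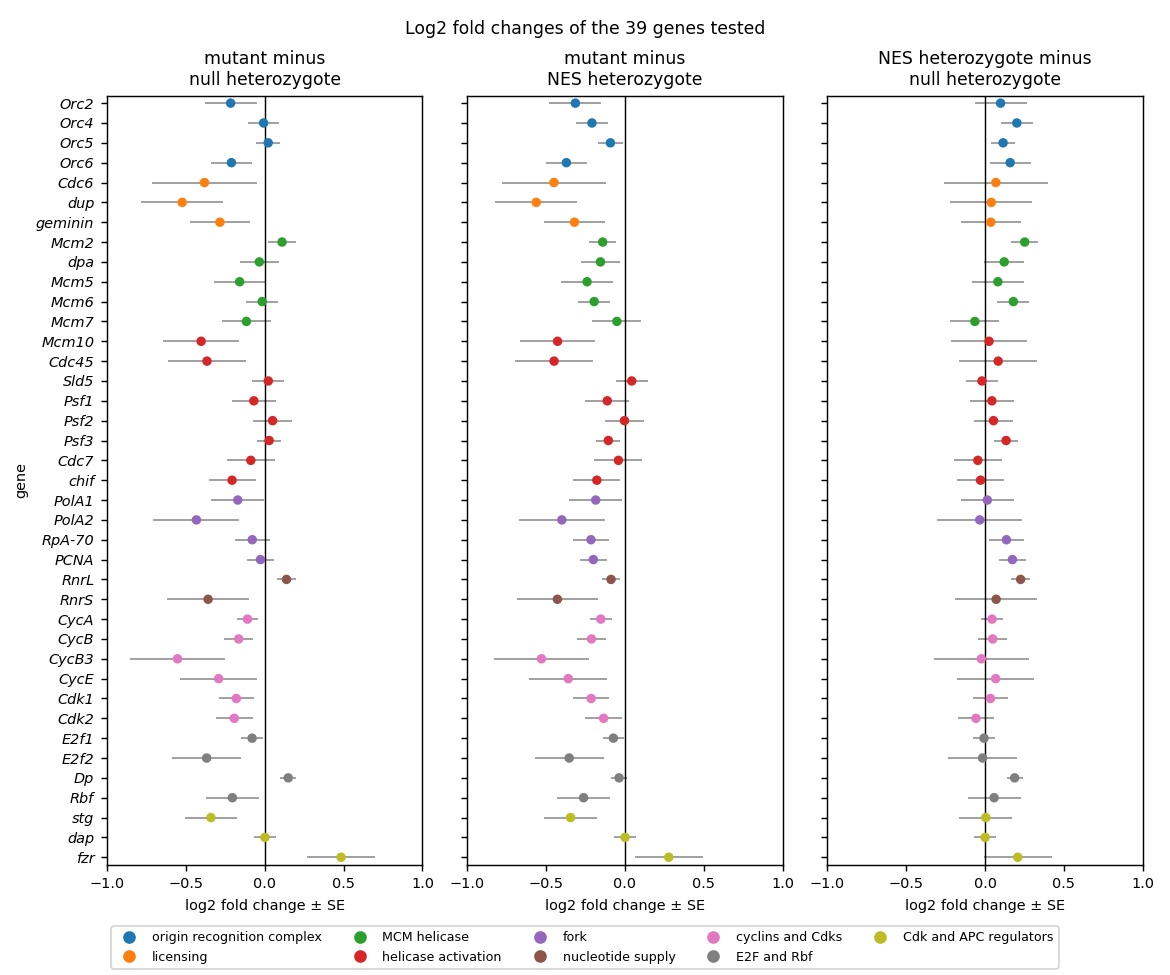
Log2 fold changes with SE from the edgeR fit for the 39 genes tested, in the order of role groups, for the 3 comparisons. Most points are below 0 in both comparisons of the mutant, with medians of -0.159 and -0.200, the median between the heterozygotes is 0.053, and 0 of the points passed the adjusted p of 0.05.

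The origin recognition complex genes varied moderately. Values for replicates 1, 2 and 3 of each genotype are given in that order from here on. Orc6, its smallest subunit, was at 36.6, 27.9 and 38.8 CPM in the null heterozygotes, 40.03, 35.4 and 39.9 in the NES heterozygotes and 27.1, 31.3 and 30.8 in the mutants. All mutants were below all NES heterozygotes, and the log2 fold change was -0.37 (SE 0.13, adjusted p = 0.324). Orc2 was at 116, 73.9 and 105 CPM in the null heterozygotes, 115, 90.4 and 110.1 in the NES heterozygotes and 76.7, 91.8 and 85.2 in the mutants. Null heterozygote 2 and mutant 1 were the lowest libraries, and the mutants overlapped both heterozygotes, with -0.22 (SE 0.17, adjusted p = 0.458) against the null heterozygote. Orc4 was at 73.1, 58.1 and 71.7 CPM in the null heterozygotes, 82.9, 77.4 and 73.1 in the NES heterozygotes and 62.8, 68.4 and 70.8 in the mutants. It was higher in every NES heterozygote than in any null heterozygote or mutant, although NES heterozygote 3 and null heterozygote 1 were nearly equal, with 0.20 (SE 0.10, adjusted p = 0.601) between the heterozygotes and -0.21 (SE 0.10, adjusted p = 0.484) for the mutant against the NES heterozygote. Orc5 was nearly flat, at 56.03, 48.6 and 52.01 CPM in the null heterozygotes, 55.9, 56.7 and 56.95 in the NES heterozygotes and 48.9, 54.3 and 55.9 in the mutants, and its NES heterozygotes lay above the mutants by a small margin.

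The licensing genes varied widely between libraries. Cdc6, which helps load the helicase, was at 176, 71.96 and 166 CPM in the null heterozygotes, 181, 108 and 145 in the NES heterozygotes and 85.2, 129 and 104 in the mutants. Null heterozygote 2 was the lowest library and mutant 1 next, and the groups overlapped, with -0.45 (SE 0.33, adjusted p = 0.594) for the mutant against the NES heterozygote. The gene dup was at 398, 193 and 363 CPM in the null heterozygotes, 384, 267 and 329 in the NES heterozygotes and 192, 259.7 and 213 in the mutants. Every mutant was below every NES heterozygote, while null heterozygote 2 fell among the mutants, and its fold changes were -0.52 (SE 0.26, adjusted p = 0.324) and -0.56 (SE 0.26, adjusted p = 0.468) against the null and the NES heterozygote. Geminin, whose product binds and inhibits Cdt1, was at 233, 136 and 219 CPM in the null heterozygotes, 226, 170.5 and 207 in the NES heterozygotes and 155, 175 and 154 in the mutants. It was lowest in null heterozygote 2, the groups overlapped, and the fold change was -0.28 (SE 0.19, adjusted p = 0.415) for the mutant against the null heterozygote.

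Among the MCM helicase genes Mcm2 stood out by its NES heterozygotes. Mcm2 was at 297, 248 and 296 CPM in the null heterozygotes, 337, 323 and 342 in the NES heterozygotes and 279, 305 and 324 in the mutants. The NES heterozygotes were above the null heterozygotes without overlap, with 0.25 (SE 0.09, adjusted p = 0.339), and the mutants overlapped both. Mcm5 was at 395, 263 and 401 CPM in the null heterozygotes, 413, 326 and 381 in the NES heterozygotes and 288, 336 and 324 in the mutants, with null heterozygote 2 lowest and -0.24 (SE 0.16, adjusted p = 0.582) for the mutant against the NES heterozygote. Mcm6 was at 280.3, 219 and 267 CPM in the null heterozygotes, 307, 268 and 293 in the NES heterozygotes and 235, 263 and 260.2 in the mutants. Its mutants were below its NES heterozygotes with -0.20 (SE 0.10, adjusted p = 0.516), and against the null heterozygote the difference was -0.02 (SE 0.10, adjusted p = 0.932). The gene dpa, the fly Mcm4, had -0.03 (SE 0.12, adjusted p = 0.878) in that comparison, and Mcm7 had -0.12 (SE 0.15, adjusted p = 0.653).

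Genes of helicase activation split by subunit. Cdc45 was at 304, 155 and 284 CPM in the null heterozygotes, 301, 211 and 276 in the NES heterozygotes and 168, 221 and 188 in the mutants, with null heterozygote 2 lowest, mutant 1 next and -0.45 (SE 0.25, adjusted p = 0.528) for the mutant against the NES heterozygote. Mcm10, which helps start the fork, was at 162, 91.4 and 160.1 CPM in the null heterozygotes, 167, 109.9 and 144 in the NES heterozygotes and 88.3, 123 and 102 in the mutants. It had mutant 1 lowest and -0.40 (SE 0.24, adjusted p = 0.38) against the null heterozygote, and it shares 13% of its exon bases with Ret, which had between 0 and 3 counts. The GINS subunit genes were flatter. Psf3 was at 38.4, 37.4 and 38.2 CPM in the null heterozygotes, 41.97, 42.9 and 40.2 in the NES heterozygotes and 38.6, 35.6 and 42.1 in the mutants, with every NES heterozygote above every null heterozygote and 0.13 (SE 0.08, adjusted p = 0.697); it shares 34.9% of its exon bases with CG17841, which had 3071 to 4747 counts per library against 1152 to 1704 for Psf3. Psf2 was at 19.2, 16.7 and 20.2 CPM in the null heterozygotes, 20.1, 18.95 and 19.1 in the NES heterozygotes and 16.99, 22.6 and 18.5 in the mutants, and the groups overlapped in all 3 comparisons. Sld5 and Psf1 had 0.02 (SE 0.10, adjusted p = 0.899) and -0.07 (SE 0.14, adjusted p = 0.77) in the mutant against the null heterozygote. Cdc7 had -0.09 (SE 0.15, adjusted p = 0.73) and chif, which codes for the activator of Cdc7 and is needed for chorion gene amplification, had -0.21 (SE 0.15, adjusted p = 0.435).

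The polymerase alpha genes varied more between libraries than RpA-70 and PCNA did. PolA2 was at 126, 60.2 and 119 CPM in the null heterozygotes, 119, 80.1 and 99.7 in the NES heterozygotes and 64.2, 89.6 and 72.4 in the mutants, with null heterozygote 2 and mutant 1 lowest and -0.43 (SE 0.27, adjusted p = 0.393) against the null heterozygote. PolA1, which codes for the catalytic subunit, was at 210.3, 133 and 198 CPM in the null heterozygotes, 199.8, 159.5 and 187 in the NES heterozygotes and 145, 171 and 165 in the mutants, with the same libraries lowest and -0.18 (SE 0.17, adjusted p = 0.638) for the mutant against the NES heterozygote. RpA-70, the large subunit of the protein that coats single-stranded DNA, was at 403, 311 and 417 CPM in the null heterozygotes, 434, 387 and 422 in the NES heterozygotes and 340.01, 364 and 367 in the mutants. PCNA was at 424, 339 and 400.02 CPM in the null heterozygotes, 452, 419 and 439.7 in the NES heterozygotes and 392, 373 and 376 in the mutants. In both, every mutant was below every NES heterozygote, with -0.21 (SE 0.11, adjusted p = 0.51) for RpA-70 and -0.20 (SE 0.09, adjusted p = 0.433) for PCNA. The unadjusted p for PCNA was 0.0465.

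Of the nucleotide supply genes RnrL and RnrS differed in their spread. RnrL was at 572, 536 and 563 CPM in the null heterozygotes, 641, 641 and 670.02 in the NES heterozygotes and 606, 599.9 and 631 in the mutants. The order was null heterozygote, mutant, NES heterozygote with no overlap between neighbouring groups, and the fold changes were 0.14 (SE 0.06, adjusted p = 0.284) from null heterozygote to mutant, -0.09 (SE 0.06, adjusted p = 0.577) from NES heterozygote to mutant and 0.23 (SE 0.06, adjusted p = 0.156) from null to NES heterozygote. RnrS was at 522, 275 and 509 CPM in the null heterozygotes, 523, 349 and 498 in the NES heterozygotes and 299.996, 409.98 and 308 in the mutants. The mutants overlapped both heterozygotes, null heterozygote 2 was the lowest library, and the fold change was -0.43 (SE 0.26, adjusted p = 0.554) against the NES heterozygote.

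The mitotic cyclin genes included the most abundant gene of the 39 per kb of exon. CycB was at 4181, 3538 and 4074 CPM in the null heterozygotes, 4304, 3715 and 4171 in the NES heterozygotes and 3411, 3590 and 3520 in the mutants. Every mutant was below every NES heterozygote, with -0.21 (SE 0.09, adjusted p = 0.433) and an unadjusted p of 0.0467, and null heterozygote 2 lay among the mutants. CycA was at 1692, 1608 and 1736 CPM in the null heterozygotes, 1781, 1673 and 1737 in the NES heterozygotes and 1476, 1593 and 1602 in the mutants. It was lower in every mutant than in every library of either heterozygote, with -0.11 (SE 0.07, adjusted p = 0.394) and -0.15 (SE 0.07, adjusted p = 0.448) against the null and the NES heterozygote. CycB3 was at 547, 233 and 529 CPM in the null heterozygotes, 519, 328 and 441 in the NES heterozygotes and 271, 339 and 283 in the mutants, with null heterozygote 2 lowest and -0.55 (SE 0.30, adjusted p = 0.354) for the mutant against the null heterozygote. CycE, the S phase cyclin, had -0.36 (SE 0.25, adjusted p = 0.582) against the NES heterozygote, and Cdk1 and Cdk2 had -0.21 (SE 0.11, adjusted p = 0.512) and -0.14 (SE 0.12, adjusted p = 0.629).

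In the E2F and Rbf group Dp, the partner of E2F, varied little within groups. Dp was at 282, 281 and 277 CPM in the null heterozygotes, 317, 315 and 325 in the NES heterozygotes and 306, 306 and 321 in the mutants. Its mean was 280.2 ± 2.4 CPM (SD, n = 3) in null heterozygotes, against 319 ± 5.13 in NES heterozygotes and 311 ± 8.79 in mutants. The null heterozygotes lay below all other libraries, with 0.15 (SE 0.05, adjusted p = 0.217) and 0.19 (SE 0.05, adjusted p = 0.197) for the mutant and the NES heterozygote against them. E2f2 was at 153, 85.2 and 144 CPM in the null heterozygotes, 141, 103 and 134 in the NES heterozygotes and 90.3, 114 and 92.3 in the mutants and Rbf, the fly retinoblastoma protein gene, at 302, 197 and 289.5 CPM in the null heterozygotes, 309.7, 237 and 274 in the NES heterozygotes and 205, 249 and 229.5 in the mutants. Both had null heterozygote 2 lowest and overlapped between groups, with -0.37 (SE 0.22, adjusted p = 0.38) for E2f2 and -0.26 (SE 0.17, adjusted p = 0.568) for Rbf against the null and the NES heterozygote respectively. E2f1 had -0.08 (SE 0.07, adjusted p = 0.494) against the null heterozygote.

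The regulators of Cdk and APC held the exception. The gene fzr (chromosome X, 4667290 to 4679537, minus strand) was at 47.3, 75.6 and 42.9 CPM in the null heterozygotes, 53.5, 74.6 and 63.02 in the NES heterozygotes and 82.2, 67.7 and 81.8 in the mutants. Null heterozygotes 1 and 3 were the lowest libraries and mutants 1 and 3 the highest, and the mutants overlapped the null heterozygotes through null heterozygote 2. Its fold changes were 0.48 (SE 0.21, adjusted p = 0.296) and 0.28 (SE 0.21, adjusted p = 0.607) for the mutant against the null and the NES heterozygote. The Cdc25 gene stg was at 649.6, 411 and 610.1 CPM in the null heterozygotes, 599, 483 and 593 in the NES heterozygotes and 409.6, 473 and 437 in the mutants. Every mutant was below every NES heterozygote, with -0.34 (SE 0.17, adjusted p = 0.492), and null heterozygote 2 fell among the mutants. The gene dap, an inhibitor of CycE and Cdk2, was at 97.9, 93.99 and 109 CPM in the null heterozygotes, 99.4, 102 and 99.5 in the NES heterozygotes and 95.3, 104 and 102 in the mutants, and its means of 100.4 ± 7.97, 100.4 ± 1.75 and 100.5 ± 4.49 (SD, n = 3) were nearly equal.

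Other genes of the same processes were looked at as 2 lists. Of 26 other replication genes tested, 21 had a negative log2 fold change against the null heterozygote (median -0.108) and 24 against the NES heterozygote (median -0.231). Of 50 other cell cycle genes, 41 had a negative log2 fold change in each comparison of the mutant, with medians of -0.159 and -0.129. Over all genes tested 50% and 49.6% were negative in these comparisons. In the NES against the null heterozygote 23 of the 26 replication genes were positive (median 0.078), and 28 of the 50 cell cycle genes (median 0.005). There 50.7% of all genes were negative. Fits with a library left out or with the eggshell covariate were not summarised for these lists. By edgeR 0 genes of either list were called in the 3 comparisons. At an unadjusted p under 0.05 against the null heterozygote, where 7.8% of all genes were lower and 9.15% higher, 1 of the 26 replication genes was lower and 1 higher, and 6 of the 50 cell cycle genes were lower and 2 higher. Against the NES heterozygote, where 4.49% of all genes were lower and 6.85% higher, 7 of the 26 replication genes were lower and 0 higher, and 4 of the 50 cell cycle genes were lower and 1 higher. Between the heterozygotes, where 4.78% of all genes were lower and 4.77% higher, 4 of the 26 replication genes were higher and 0 lower, and 1 of the 50 cell cycle genes was lower and 0 higher.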

How the data were processed

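RNA was isolated with TRIzol and made into libraries with a stranded TruSeq mRNA kit for a HiSeq 2500, per the labels' protocols. The authors deposited, for each library, the raw read count of every gene, with no normalization and 0 entries that name no gene. The submitters' processing notes name HISAT2 2.0.4, SAMtools 0.1.19, Trimmomatic 0.36, HTSeq and FastQC, and the build BDGP6. The annotation release is not stated in those sources, nor is the strand setting. Values of overlapping and antisense genes are uncertain for that reason.

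Symbols and positions were taken from Ensembl's BDGP6.54 annotation, which matched 17252 of 17558 identifiers; the 306 others held 5% of counts. The counts were fitted with edgeR 4.0.16 (R 4.3.3) after filterByExpr had removed genes of low count (minimum count 10, minimum total 15) and TMM had scaled the libraries. The quasi-likelihood model held 1 coefficient for each genotype and used all 9 libraries. Benjamini-Hochberg adjustment ran over the 8642 genes left, and an adjusted p under 0.05 was called. Standard errors were obtained from the size of the log2 fold change over the root of F. The biological coefficient of variation was 20.1%. The procedure was tested on simulated data. For the slope on the eggshell share, most simulated slopes were missed at the spread of the fit without that covariate and most were recovered at the smaller spread left with it, a setting added after the first outcome was seen. Replicates differed by more than sampling noise (chi-square per degree of freedom 17.23 to 298.8), so each library counts once.

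The genes, lists, tests and alternatives were chosen with earlier results of these data known, including the eggshell share as a covariate and the fit without null heterozygotes 1 and 3. The slope on the eggshell share and its alternatives were added after seeing the data. Values in every library are given in each role for the 2 genes of lowest unadjusted p in each comparison; dap was added after its values were seen. The alternatives tried were other scalings and filters, DESeq2 1.42.0, fits on 2 groups alone, a replicate block, and leaving out each library in turn. Motifs in promoters were not analysed here.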

Additional observations from a re-analysis of the deposited data

How the results depend on the processing

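With the other scalings 0 of the 39 genes were called between genotypes, while the tool, the libraries and the eggshell covariate changed the counts. Counts are given for the mutant against the null heterozygote, the mutant against the NES heterozygote and the NES against the null heterozygote, in that order. With DESeq2 1, 0 and 2 of the 39 genes were called, and 552, 345 and 341 of all genes. The stricter filter (mean of at least 5 CPM) called 61, 27 and 33 of all genes, and fits with only the 2 groups compared called 51, 145 and 24. The eggshell covariate called 13, 19 and 30 of the 39 genes and 731, 1090 and 2418 of all genes, with medians of 0.198 and 0.339 in the comparisons with the null heterozygote (mutant, then NES heterozygote). Without null heterozygotes 1 and 3 these medians were 0.189 and 0.406, 19 and 32 of all genes were called, and the lone null heterozygote is assumed to vary like the other groups. Leaving out 1 library at a time called 0 to 25 of the 39 genes in the first comparison, with the 25 reached without null heterozygote 2, and 0 in the others; all genes called ranged over 26 to 3679, 28 to 259 and 35 to 741. The slope on the eggshell share called 31 of the 39 genes (55.8% of all genes) and 37 with library size alone (56.9%). It called 19 to 31 with 1 library left out (26.3% to 54.7% of all genes), the 19 without null heterozygote 2, and 19 without null heterozygotes 1 and 3 (24.3%). The cause of these changes was not tested.

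Replicates 1 and 2 of the null and NES heterozygotes deviated together (correlations of 0.660 and 0.641), but the correlations of the other same-numbered libraries were -0.579 to 0.028, so the numbers were not taken as pairs. The fit with the replicate number as a block called 59, 34 and 38 of all genes and 0 of the 39.

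Of 513 values for 27 gene results, 472 kept direction and side of the threshold, 26 kept direction and passed the threshold, and 15 changed sign. Values of PolA2 and CycB3 were among those that changed sign and also passed the threshold. This was in the mutant against the null heterozygote with the eggshell covariate (edgeR adjusted p = 0.0233 and 0.0214). In the mutant against the null heterozygote, with the eggshell covariate and without null heterozygotes 1 and 3 respectively, Orc6 became 0.070 and 0.080, dup 0.194 and 0.189, Mcm10 0.220 and 0.179, PolA2 0.323 and 0.313, and CycB3 0.322 and 0.339. In the NES against the null heterozygote fzr became -0.153 and -0.257 under the same settings, CycA -0.003 with library size alone, and Cdc6 ranged from -0.242 to 0.271 with 1 library left out. With 31.8 to 43.6 M (1e6) counts a library, the gene of lowest count among the 39, Psf1, had 373 to 684 counts per library.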
